A study of Mus musculus with 6 samples.

Results

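Glucose breakdown and the response to low oxygen were examined in the uterus of mice with and without conditional ablation of Indian hedgehog (Ihh), through a list of 33 genes for glycolytic enzymes, sugar and lactate carriers, regulatory kinases and oxygen-responsive proteins. Members were all probe sets to which the platform annotation gives exactly 1 gene symbol from that list. There were 67 such probe sets for 31 of the 33 genes, out of 45050 probe sets and 18194 genes. Gpi1 and Eno1 had no probe set with 1 symbol and are not analysed here. Of the 67 probe sets, 60 passed the filter on dim signal and were tested, and they covered 30 genes. The 7 others, among them both probe sets of Egln3, were too dim. The array holds 1 intensity per probe set and sample.

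The control samples came from Ihhf/f mice, which carry floxed Ihh alleles, and the Ihh-ablated samples, labelled Ihhd/d, from mice that also carry a Cre recombinase at the progesterone receptor locus (PRcre/+). Cre from this locus acts in cells that express the progesterone receptor, so cells without it keep their floxed alleles. Every Ihh-ablated sample also carries the Cre, and the effects of Cre and of Ihh loss cannot be told apart. Each genotype had 3 samples of uterus from day -1 of an artificial decidual response, a procedure that uses hormones and a stimulus to the uterus to make the stroma differentiate as it does in pregnancy. The labels give no ages and do not say that each sample is another mouse, so p-values cover only variation among these samples, part of which may be technical. Titles, genotypes and design text name Ihh, whereas the source entry of each sample speaks of SmoM2, a Smoothened model, and the titles were followed. The comparison asks which transcripts of these pathways differ in the uterus after this ablation.

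Glycolysis turns glucose into pyruvate in a chain of cytosolic enzymes, and lactate dehydrogenase turns pyruvate into lactate, which leaves the cell through monocarboxylate carriers. When oxygen is short, prolyl hydroxylases of the Egln family stop marking hypoxia-inducible factors for destruction, and these factors raise the transcription of glycolytic enzymes, glucose carriers, pyruvate dehydrogenase kinases and angiogenic factors. In the uterus, proliferating and decidualizing stroma is known to rely on glucose uptake and lactate production. Most glycolytic steps have several isozymes, some of which are abundant in skeletal muscle, brain or fat.

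Ihh itself, by its 1 probe set, gave 163.9, 162.3 and 140.2 in control, against 121.4, 93.3 and 135.4 in Ihh-ablated samples, lower in each but not past the test (log2 difference -0.43, limma adjusted p = 0.164). Whether that probe set lies in the deleted part of the gene is not known here, so this is a weak check of the labels. Some arrays carried transcripts of other tissues, and these values bear on several members. Summed over 11 striated muscle markers, intensity lay between 5602 and 15748 in control and between 2324 and 2908 in Ihh-ablated samples, with the peak in control replicate 3. Of the 10 markers tested, 1 was called, Acta1, lower in Ihh-ablated samples (log2 -1.73, limma adjusted p = 0.00208). Acta1 made up most of the sum in control replicates 1 and 2 (4164 of 5815 and 3559 of 5602). In all, 6 of the 10 were lower without overlap, beside 19% of all genes, while Myh4, Tnnt3, Mylpf and Actn3 overlapped between the groups. Markers of exocrine pancreas (9 of 11 measured) summed to 79347 in Ihh-ablated replicate 2 and to between 899.1 and 2763 elsewhere. Markers of adipocytes (9 of 11 measured) summed to between 3198 and 14532 in control and between 11365 and 26679 in Ihh-ablated samples. Uterine epithelium markers (10 of 10) summed to between 9195 and 13157 in control and between 13250 and 14090 in Ihh-ablated samples, and 0 of them was called by limma at an adjusted p under 0.05, with 7 at an unadjusted p under 0.05. Stroma markers (12 of 12) summed to between 53478 and 57763 in control and between 51485 and 53628 in Ihh-ablated samples, and 3 of them were called by limma: Vim fell (log2 -0.37, adjusted p = 0.014), Thy1 fell (-1.44, 0.00139) and Dcn rose (0.24, 0.0489). Of 9 smooth muscle markers Actg2 fell (-0.25, limma adjusted p = 0.0338), and of 9 endothelial markers Cdh5 fell (-0.57, 0.0275), with sums that overlapped. No marker was at 0. The part of these tissues in the results was not tested except where a value without an array is given. In whole uterus, fewer cells of a type and less RNA per cell cannot be told apart. Median intensity was 142.5 in control replicate 2 and between 121.4 and 125.8 in the other arrays. Over all genes the median log2 difference was -0.04, and it was 0.05 with median-centred arrays and -0.01 without control replicate 2. The part of the higher median in lower values of dim genes taken alone was not tested.

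The promoters of 4 members are shown first, because oxygen-responsive transcription acts through short motifs near the start site. Tpi1, Pkm and Pgk1 each had a called probe set, and Slc2a1 encodes a glucose carrier that was not called. The core that hypoxia-inducible factors bind is ACGTG or GCGTG, and capitals mark these letters on either strand. Each run is the 250 bases before the transcription start, from RefSeq (GRCm38.p6), 5′ to 3′ on the gene's strand, and for Pkm the downstream of both listed starts is shown.
Tpi1, chr6:124814159-124814408, minus strand: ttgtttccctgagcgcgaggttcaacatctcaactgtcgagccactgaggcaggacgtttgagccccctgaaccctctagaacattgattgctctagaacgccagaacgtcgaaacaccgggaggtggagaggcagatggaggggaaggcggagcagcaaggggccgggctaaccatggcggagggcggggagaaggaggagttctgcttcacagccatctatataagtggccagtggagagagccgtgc
Pgk1, chrX:106186850-106187099, plus strand: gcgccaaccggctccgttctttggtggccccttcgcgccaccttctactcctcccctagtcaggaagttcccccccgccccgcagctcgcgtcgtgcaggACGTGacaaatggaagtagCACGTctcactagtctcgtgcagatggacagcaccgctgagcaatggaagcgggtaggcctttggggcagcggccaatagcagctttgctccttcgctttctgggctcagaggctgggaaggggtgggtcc
Pkm, chr9:59656977-59657226, plus strand: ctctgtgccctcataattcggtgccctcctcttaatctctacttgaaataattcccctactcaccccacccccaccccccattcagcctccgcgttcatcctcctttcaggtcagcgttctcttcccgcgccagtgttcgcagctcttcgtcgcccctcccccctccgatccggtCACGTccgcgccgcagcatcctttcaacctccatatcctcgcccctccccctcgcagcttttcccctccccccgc
Slc2a1, chr4:119108495-119108744, plus strand: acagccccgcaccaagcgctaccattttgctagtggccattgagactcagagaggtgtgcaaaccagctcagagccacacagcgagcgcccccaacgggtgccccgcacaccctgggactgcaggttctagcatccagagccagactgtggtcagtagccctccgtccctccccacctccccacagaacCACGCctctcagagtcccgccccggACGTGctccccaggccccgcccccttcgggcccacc
Either core occurred in 37 of 45 promoters listed for 32 of the 33 genes (82.2%), against 38.6% of all 32851 promoters of the same length. The members' promoters were also richer in G and C, with a median of 62.8% against 52.4% and the part of this in the difference was not tested. By group, 75% of the 28 glycolytic enzyme promoters and 94.1% of the 17 others held it. The core overlaps the E-box CACGTG, which was present in 6 of the 45. Tpi1 had no match in this window, Pgk1 had 2, both of them ACGTG, and Slc2a1 had 2. The Pkm promoter shown had 1, and the other listed Pkm promoter had 0. The motif GACCACCCA, which GLI factors bind, had 0 matches in the 45 promoters and 0.225% of all promoters held it.

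Of the 15 glycolytic enzyme genes tested, 2 fell in Ihh-ablated uteri, Tpi1 and Pkm, 0 rose and 13 did not pass at an adjusted p under 0.05 (limma, Benjamini-Hochberg over all probe sets). Over all 15531 genes tested, each by its brightest probe set, 2.81% were called, 1.53% lower and 1.28% higher. By probe set, 4 of the 32 tested for these enzymes were called, all lower, beside 2.14% of all 33787 (1.11% lower, 1.03% higher). The median log2 difference (Ihh-ablated minus control) of the 15 enzymes was -0.12, against -0.04 over all genes. Of the 12 stroma markers 10 lay below 0 and 2 above, with a median of -0.12. Vim (-0.37) and Thy1 (-1.44) fell, while Dcn rose (0.24), as given above. The part of stroma in the enzyme falls was not tested.

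**Figure D1:**
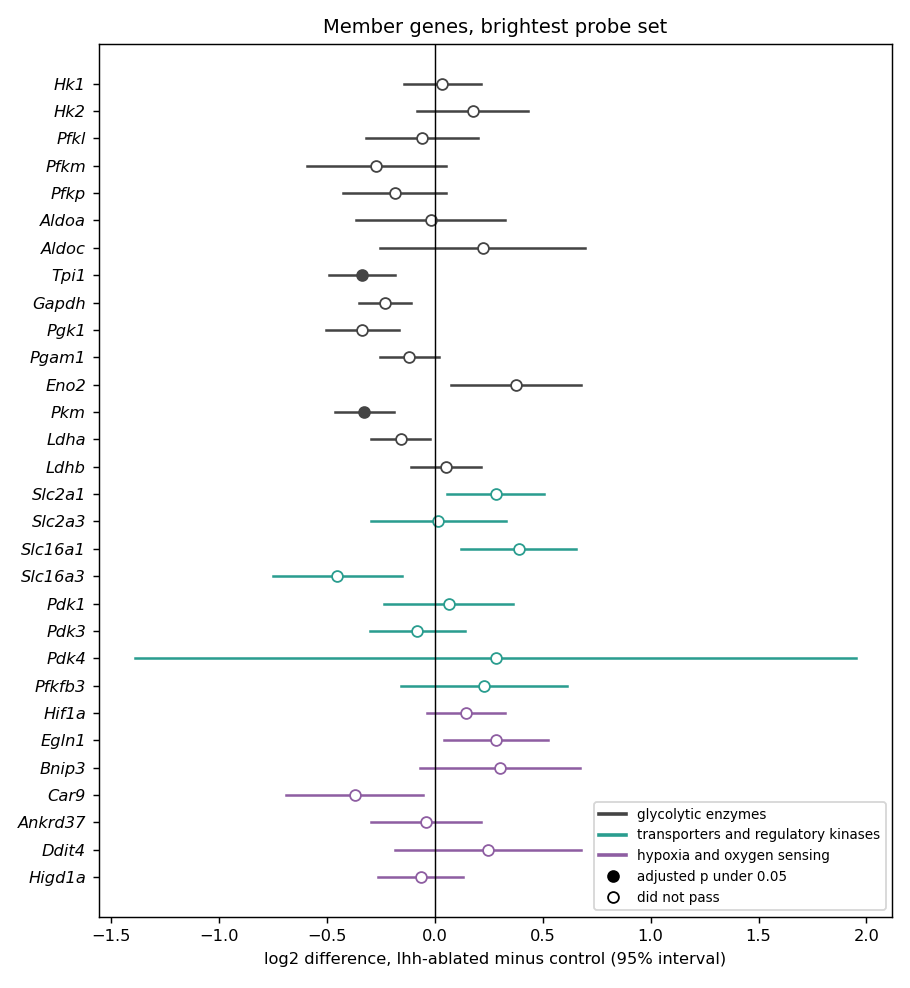
Log2 difference, Ihh-ablated minus control, of the 30 tested genes (brightest probe set), with 95% intervals from limma and filled points for an adjusted p under 0.05. The 2 filled points are Tpi1 and Pkm, both to the left of 0, and the interval of Pdk4 is the widest.

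Tpi1 encodes triosephosphate isomerase, which interconverts both triose phosphates made by aldolase. Its brightest probe set read 2135, 2175 and 2292 in control, against 1737, 1858 and 1633 in Ihh-ablated samples, so every Ihh-ablated sample lay below every control sample. The mean was 2201 ± 81.7 against 1743 ± 113 (intensity, SD, n = 3 each). This is 1.26-fold lower, with a log2 difference of -0.34 (95% interval -0.49 to -0.18, limma adjusted p = 0.0411). A second probe set fell by 0.36 on the log2 scale (limma adjusted p = 0.0332) and the other read -0.31 (adjusted p = 0.0594), both with groups that did not overlap.

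Pkm encodes the muscle-type pyruvate kinase, the enzyme of the last step of glycolysis, whose splice forms the single probe set was not used to separate. It read 2068, 2162 and 2245 in control, against 1700, 1748 and 1712 in Ihh-ablated samples. The Ihh-ablated samples lay within a narrow band below all controls, with means of 1720 ± 25.1 and 2158 ± 88.5 (intensity, SD, n = 3 each). Pkm was thus 1.25-fold lower, with a log2 difference of -0.33 (95% interval -0.46 to -0.19, limma adjusted p = 0.0288).

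Pgk1, on the X chromosome, encodes phosphoglycerate kinase, the first step of glycolysis that yields ATP. Its brightest probe set read 2050, 2116 and 2182 in control, against 1795, 1724 and 1520 in Ihh-ablated samples, again without overlap, a log2 difference of -0.34 (95% interval -0.51 to -0.17) that missed the threshold (limma adjusted p = 0.0566). A second probe set fell by 0.36 on the log2 scale and passed (limma adjusted p = 0.0267), and the third read -0.28 (adjusted p = 0.0663). Pgk1 therefore passed or missed depending on which of its probe sets stood for it.

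Tpi1 lost its call without control replicate 1 (limma adjusted p = 0.109), control replicate 2 (0.103), and Ihh-ablated replicates 1 (0.147), 2 (0.0529) and 3 (0.141). Pkm lost it without the same arrays (0.0707, 0.0873, 0.126, 0.0769 and 0.0959), and the second Pgk1 probe set did too (0.101, 0.0711, 0.119, 0.0669 and 0.094). Without control replicate 3, the array with the most muscle signal, Tpi1 read -0.31 (adjusted p = 0.0375) and Pkm -0.30 (0.0264). In that setting 12.2% of all genes were called. Over the removal of single arrays the difference stayed between -0.39 and -0.29 for Tpi1 and between -0.36 and -0.30 for Pkm. With each array centred on its median the differences were -0.25 (adjusted p = 0.181) and -0.24 (0.173) and neither was called. Calls of both were also lost without an intensity trend (0.133 and 0.125) and with the mean of the adipocyte markers as a covariate (-0.36 and -0.38, adjusted p = 0.308 and 0.167).

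The 8 tested enzymes from triose phosphate on, a split made after the values were seen, had a median of -0.19 (-0.10 with median-centred arrays), and 6 of them lay below 0, each with groups that did not overlap. Among all 15531 genes the groups did not overlap, with Ihh-ablated samples lower, in 19%. The 7 enzymes before that point had a median of -0.02 (0.07 with median-centred arrays, and between -0.12 without control replicate 1 and 0.10 without control replicate 3), and 1 of them, Pfkp, had lower groups without overlap. Centring moved the median of all 15 to -0.03 and that of all genes to 0.05. Because the values prompted the split, it is a description only. Gapdh, the glyceraldehyde phosphate dehydrogenase often used as a reference gene, read 5370, 5738 and 6057 in control, against 4704, 4950 and 4962 in Ihh-ablated samples with its 3′ control probe set, and 3 further probe sets that several genes share were not used. Its log2 difference was -0.23 (95% interval -0.35 to -0.11, limma adjusted p = 0.0656, 0.027 after quantile normalization). The middle probe set read -0.20 (limma adjusted p = 0.0838) and the 5′ one -0.09 (0.313). The 3′ over 5′ ratio of Gapdh, a measure of RNA integrity, was 1.16, 1.13 and 1.29 in control, against 1.07, 1.09 and 1.08 in Ihh-ablated samples, whereas that of Actb overlapped (1.80, 1.69 and 1.93 against 1.70, 1.67 and 1.76). Its part in the Gapdh difference was not tested.

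Ldha, the lactate dehydrogenase subunit favoured in lactate-producing tissue, read 5030, 5458 and 5589 in control, against 4987, 4959 and 4457 in Ihh-ablated samples. The groups were separated by a narrow gap, with a log2 difference of -0.16 (95% interval -0.30 to -0.02, limma adjusted p = 0.174). Ldhb, the subunit favoured in oxidative tissue, read 0.05 (adjusted p = 0.687) with its groups overlapping, and all 4 of its probe sets lay between 0.04 and 0.07. Pgam1, the phosphoglycerate mutase, differed by -0.12 (adjusted p = 0.271). Eno2, the neuronal form of enolase, lay the other way, with 127.4, 132.0 and 150.3 in control, against 154.1, 189.7 and 189.6 in Ihh-ablated samples. That is a log2 difference of 0.38 (95% interval 0.08 to 0.68, limma adjusted p = 0.153), higher in all 3 Ihh-ablated samples but not past the test.

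**Figure D2:**
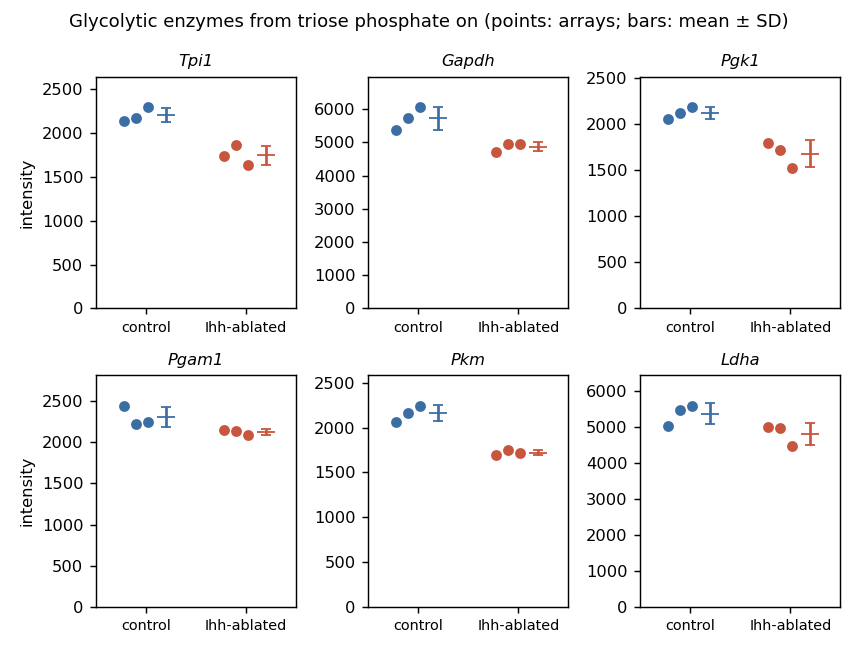
Intensity (linear, from 0) of 6 glycolytic enzymes from triose phosphate on in each of 3 control and 3 Ihh-ablated samples, with mean and SD beside the points. In each panel the 3 Ihh-ablated samples lie below the 3 control samples, and only Tpi1 and Pkm passed the test by the probe set drawn. The panels are the enzymes of this part with a difference below 0. Eno2 (log2 difference 0.38, higher without overlap) and Ldhb (0.05, overlapping) are not drawn.

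The early enzymes showed no call. Hexokinases trap glucose in the cell as its phosphate. Hk1 differed by 0.03 (95% interval -0.14 to 0.21, limma adjusted p = 0.802) and Hk2, the inducible form, by 0.17 (-0.08 to 0.43, adjusted p = 0.368). The phosphofructokinase subunits, which make the committed step, read -0.06 for Pfkl (adjusted p = 0.769), -0.27 for Pfkm (0.28) and -0.19 for Pfkp (0.312), and a dimmer Pfkp probe set read 0.08 (0.767). Aldoc, the aldolase of brain, read 0.22 (0.529). The intervals of Hk2, Pfkm, Pfkp and Aldoc, and that of Aldoa given below, reached beyond the size of the Tpi1 difference.

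Aldoa and Pfkm are the aldolase and phosphofructokinase of muscle, and their values followed 1 array. Aldoa read 2128, 2402 and 3491 in control, against 2425, 2602 and 2715 in Ihh-ablated samples, with control replicate 3 above all others and control replicate 1 below all others. Its log2 difference of -0.02 (95% interval -0.36 to 0.33, limma adjusted p = 0.947) became 0.19 without control replicate 3 (adjusted p = 0.153), and all 5 of its probe sets read between -0.08 and -0.02 with all arrays. Pfkm read 477.5, 510.3 and 685.1 in control, against 425.2, 443.0 and 504.7 in Ihh-ablated samples, and its difference of -0.27 shrank to -0.11 without that array. The muscle forms of enolase and mutase, Eno3 and Pgam2, were highest in the same array (794.7 and 382.9, against at most 228.1 and 148.3 in any other), as was the sum of the muscle markers. Tpi1 and Pkm were also highest there, by a narrow margin over the next array (2292 beside 2175 and 2245 beside 2162).

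**Figure D3:**
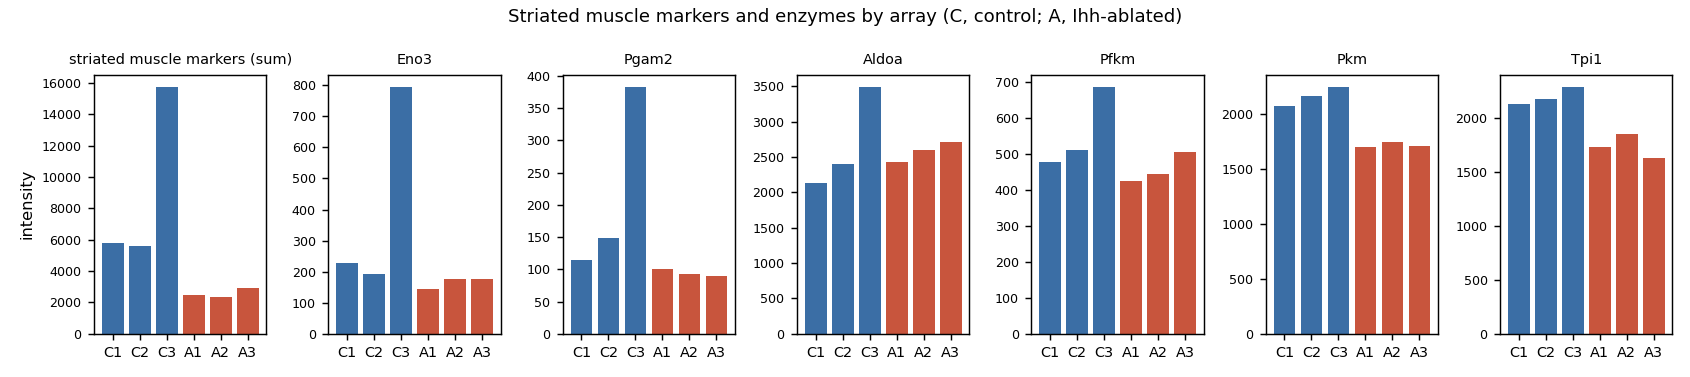
Summed intensity of 11 striated muscle markers and intensity of 6 enzymes in each array (C1 to C3, control; A1 to A3, Ihh-ablated; linear axes from 0). The sum, Eno3, Pgam2, Aldoa and Pfkm peak in C3 at 15748, 794.7, 382.9, 3491 and 685.1, while Pkm and Tpi1 differ little among the controls.

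Carriers and regulatory kinases gave 0 calls among 8 genes (limma at an adjusted p under 0.05), beside 2.81% of all genes, with 3 of the 8 at an unadjusted p under 0.05, beside 24.2% of all genes. Their median log2 difference of 0.14 became -0.05, 0.03 and 0.26 when control replicates 1, 2 and 3 were left out in turn, 0.07 when Ihh-ablated replicate 3 was, and 0.04 with a floor of 64. Slc2a1 encodes GLUT1, the widespread glucose carrier that also serves the decidua. It read 447.8, 443.4 and 509.5 in control, against 599.3, 520.0 and 582.8 in Ihh-ablated samples, so each Ihh-ablated sample was above each control by a small margin. The log2 difference was 0.28 (95% interval 0.06 to 0.51, limma adjusted p = 0.155), and both other probe sets lay above 0 at 0.18 and 0.15. Slc2a3, the high-affinity carrier GLUT3, gave 3279, 3884 and 4141 in control, against 3956, 3030 and 4554 in Ihh-ablated samples, overlapping. Its log2 difference was 0.02 (limma adjusted p = 0.951) with this brightest probe set and 0.00, 0.35 and 0.37 with the others (lowest adjusted p 0.264), so its probe sets did not give 1 picture.

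The monocarboxylate carriers lay in opposite directions. Slc16a1 (MCT1), which moves lactate either way, read 381.1, 354.7 and 383.0 in control, against 562.5, 489.2 and 421.3 in Ihh-ablated samples. It was higher in each Ihh-ablated sample, with a log2 difference of 0.39 (95% interval 0.12 to 0.65, limma adjusted p = 0.119). Slc16a3 (MCT4), the lactate exporter of glycolytic cells, read 132.7, 156.7 and 125.7 in control, against 105.5, 105.0 and 92.2 in Ihh-ablated samples. It was lower in each Ihh-ablated sample, by 0.45 on the log2 scale (difference -0.45, 95% interval -0.75 to -0.15, limma adjusted p = 0.111), and sat at the 46.9 percentile of brightness, where background weighs more. Neither passed, and neither passed without any 1 array (lowest adjusted p 0.0878 and 0.0555).

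Pyruvate dehydrogenase kinases keep pyruvate out of the citrate cycle. Pdk1, a known target of hypoxia-inducible factors, was 1 of the members whose probe sets disagreed. The brightest read 150.1, 158.5 and 194.6 in control, against 181.7, 161.9 and 179.6 in Ihh-ablated samples (log2 difference 0.06, limma adjusted p = 0.786). The 2 others tested read 0.41 (adjusted p = 0.158) and 0.53 (0.189) with groups that did not overlap. Pdk3 differed by -0.08 (adjusted p = 0.623).

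Pdk4, the kinase induced by fasting in muscle and fat, varied most. It read 51.5, 37.3 and 377.0 in control, against 65.5, 167.6 and 118.4 in Ihh-ablated samples, with control replicate 3 far above the others. The log2 difference of 0.28 had an interval from -1.39 to 1.95 (limma adjusted p = 0.83), and without control replicate 3 it was 1.32 (adjusted p = 0.0429). That setting called 12.2% of all genes, beside 2.81% with all arrays. Pfkfb3, which makes the activator of phosphofructokinase, read 813.3, 890.1 and 1196 in control, against 1175, 890.4 and 1324 in Ihh-ablated samples, overlapping (0.23, limma adjusted p = 0.431). A dimmer Pfkfb3 probe set read 0.28 (adjusted p = 0.236), higher in Ihh-ablated samples without overlap. Without control replicate 3 and Ihh-ablated replicate 2 the brightest probe set read 0.55 (adjusted p = 0.0177), where 7.37% of all genes were called.

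**Figure D4:**
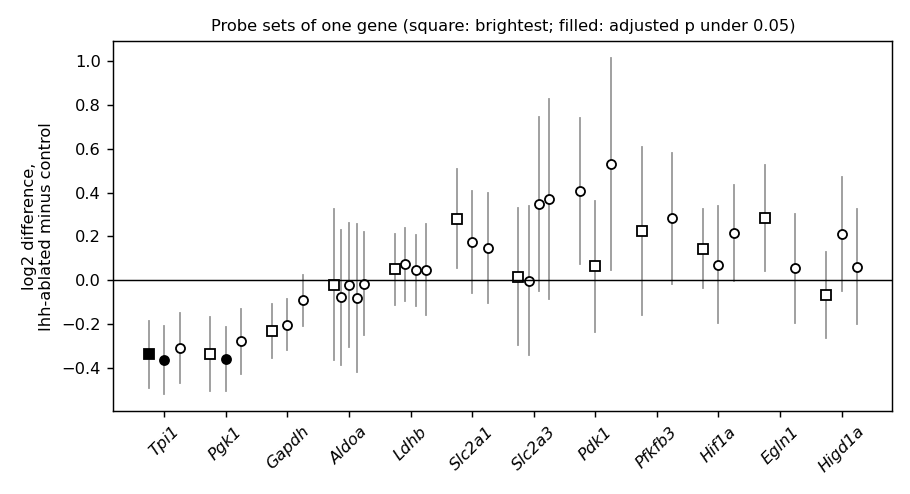
Log2 difference, Ihh-ablated minus control, with 95% interval for each tested probe set of 12 genes (squares, brightest; filled, adjusted p under 0.05). The 3 probe sets of Tpi1 and of Pgk1 lie together between -0.36 and -0.28, whereas those of Slc2a3 spread from 0.00 to 0.37 and those of Pdk1 from 0.06 to 0.53.

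Among the genes of hypoxia and oxygen sensing, 0 of 7 tested were called (limma at an adjusted p under 0.05), beside 2.81% of all genes, and 2 were at an unadjusted p under 0.05, beside 24.2%. The median log2 difference was 0.14, with 4 above 0, and it was 0.01 without Ihh-ablated replicate 2, 0.08 without Ihh-ablated replicate 3 and 0.23 with median-centred arrays. Hif1a, the oxygen-labile subunit, which is regulated mostly as a protein, read 3140, 2937 and 3216 in control, against 3568, 3019 and 3710 in Ihh-ablated samples. The groups overlapped, with a log2 difference of 0.14 (95% interval -0.04 to 0.32, limma adjusted p = 0.305) and 0.07 and 0.22 by the other tested probe sets. Egln1, the main oxygen sensor (PHD2), read 988.0, 901.4 and 1211 in control, against 1267, 1195 and 1284 in Ihh-ablated samples. Its difference was 0.28 (95% interval 0.04 to 0.53, limma adjusted p = 0.169). Without control replicate 3, the highest control, it passed at 0.40 (adjusted p = 0.0205). In that setting 12.2% of all genes were called, beside 2.81% with all arrays. Another probe set of Egln1 read 0.05 (0.778) with all arrays.

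Targets in this group did not move as one. Car9, a membrane carbonic anhydrase that is among the most oxygen-sensitive transcripts, read 140.8, 157.0 and 116.0 in control, against 108.7, 109.3 and 99.5 in Ihh-ablated samples. It lay lower in each Ihh-ablated sample (difference -0.37, 95% interval -0.69 to -0.06, limma adjusted p = 0.169). Car9 sat at the 47.8 percentile of brightness, where background weighs more, and was highest in control replicate 2. Bnip3, which targets mitochondria for removal, read 687.7, 787.1 and 624.7 in control, against 752.2, 739.9 and 1136 in Ihh-ablated samples. Only Ihh-ablated replicate 3, the array with the most adipocyte signal, stood above the controls, and the difference of 0.30 (95% interval -0.07 to 0.67, adjusted p = 0.296) was 0.10 without it. Ddit4, a stress-induced inhibitor of mTOR signalling, peaked at 984.9 in the pancreas-rich Ihh-ablated replicate 2 and read 527.2 to 666.6 elsewhere (0.25, adjusted p = 0.444, and 0.01 without that array). Higd1a, a mitochondrial protein, read -0.07 (adjusted p = 0.654), with 0.21 and 0.06 by its dimmer probe sets, and Ankrd37, an ankyrin repeat protein, -0.04 (0.835). Both dim Egln3 probe sets (PHD3) read from 54.4 to 69.3 in control, against from 67.1 to 79.1 in Ihh-ablated samples and were not tested.

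Outside the members, a list of subunits and regulators of the hypoxia-inducible factors held 2 rises and 0 falls among 9 genes, beside 1.28% of all genes called higher and 1.53% lower. Like the next list, it was chosen with earlier results of these data known. Epas1, the alpha subunit known as HIF-2 alpha that acts in decidual stroma and endothelium, read 2323, 2353 and 2322 in control, against 2808, 2993 and 3307 in Ihh-ablated samples. The controls were almost equal and all Ihh-ablated samples lay above them, a rise of 29.9% (log2 0.38, limma adjusted p = 0.0262), although a dimmer probe set read -0.01. Arnt2, a partner of the alpha subunits that is best known from neurons, rose from 89.8 ± 18.3 to 159.9 ± 10.2 (intensity, SD, n = 3 each), 1.80-fold (log2 0.85, limma adjusted p = 0.0303), at the 47.3 percentile of brightness. Its 2 other probe sets were too dim to be tested and overlapped between the groups. Arnt and Hif3a did not pass (0.16 and 0.04, limma adjusted p = 0.384 and 0.854).

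A second list, of 24 tested genes that low oxygen is known to induce in many tissues, held 3 rises and 0 falls, beside the same shares of all genes. Of the 24, 18 lay above 0, beside 43.3% of all genes, and the median was 0.20, beside -0.04. Vegfa, the endothelial growth factor, rose 1.68-fold (log2 0.74, limma adjusted p = 0.0196), the vasodilator peptide Adm 1.53-fold (0.62, 0.0394) and the clock-linked repressor Bhlhe40 1.77-fold (0.82, 0.0111). Ovarian steroids are also known to regulate Vegfa in the uterus. Another Vegfa probe set read 0.19 and another Adm probe set 0.38, and neither passed. Among the genes of this list that did not pass, Kdm3a (0.49, limma adjusted p = 0.137), Ak4 (0.43, 0.101) and Ndrg1 (0.24, 0.223) lay above 0, and Mif (-0.24, 0.105), P4ha2 (-0.22, 0.222) and Fam162a (-0.23, 0.16) below 0. The sum of the epithelial markers, given above, did not overlap between the groups, by a narrow gap (at most 13157 in control, at least 13250 in Ihh-ablated samples). Of these 10 markers 0 passed and 5 had higher groups without overlap, beside 13.3% of all genes. The part of the epithelial markers in these rises was not tested.

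Of the 3 tested regulators of fructose bisphosphate beside Pfkfb3, Tigar fell, and Pfkfb2 and Pfkfb4 did not pass. Tigar encodes a phosphatase that lowers the activator of phosphofructokinase. It read 355.6, 364.3 and 306.2 in control, against 235.3, 234.6 and 196.2 in Ihh-ablated samples, 1.54-fold lower without overlap (log2 -0.62, limma adjusted p = 0.0366), and a dimmer probe set read -0.06. All 6 calls outside the members were lost without control replicate 1 (limma adjusted p 0.0582 to 0.134) and without Ihh-ablated replicate 3 (0.0552 to 0.152), and kept their sign. Without control replicate 2 Tigar, Epas1, Arnt2 and Adm were lost, without Ihh-ablated replicate 1 all but Epas1, and without Ihh-ablated replicate 2 all but Bhlhe40. Without control replicate 3 all 6 passed, in a setting where 12.2% of all genes were called.

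**Figure D5:**
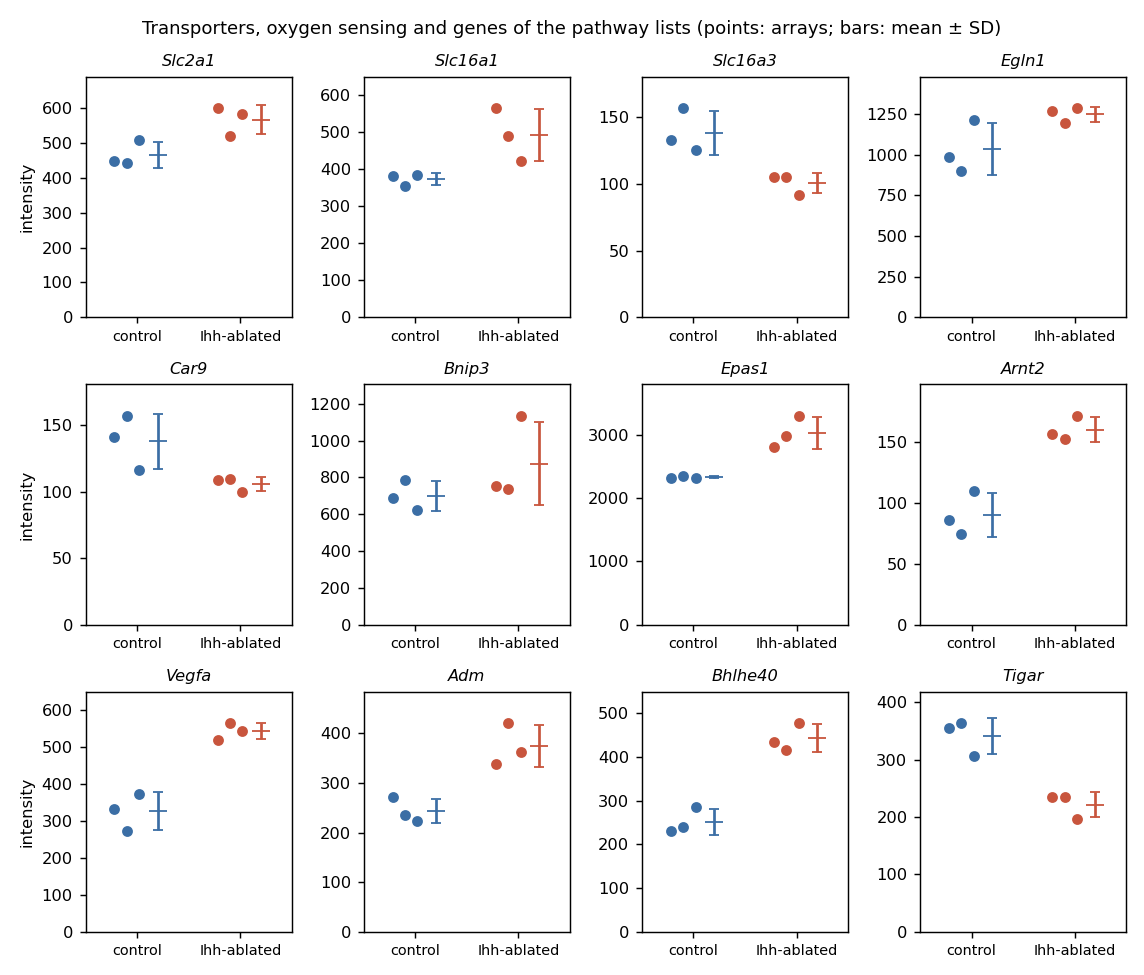
Intensity (linear, from 0) of 6 members and of the 6 called genes of the pathway lists in each of 3 control and 3 Ihh-ablated samples, with mean and SD beside the points. Epas1, Arnt2, Vegfa, Adm and Bhlhe40 are higher and Tigar is lower in all 3 Ihh-ablated samples, while Bnip3 and Egln1 overlap between the groups.

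Over all 30 tested members, 2 were called, both lower, and 15 lay above and 15 below 0. Groups did not overlap in 12 members, 9 lower and 3 higher (Eno2, Slc2a1 and Slc16a1), which is 12 of 30 beside 32.3% of all genes.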

How the data were processed

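Biotin-labelled cRNA was made from uterine total RNA and measured on Affymetrix arrays, per the labels. The deposited table holds 1 linear intensity for each probe set and array, already processed by the authors. The software, background correction and normalization behind it were not given in the sources used here. Groups came from the titles. Of 64 Affymetrix control probe sets, 13 with 1 gene symbol were kept, since they include the 3 Gapdh probe sets, and 51 were left out. Of 45101 probe sets, 34958 had 1 symbol, 932 several and 9160 none.

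Intensities under 16 were set to 16 (1821 values), log2 was taken and the lowest 25% by mean were left out. Genotypes were compared with limma 3.58.1 (lmFit, eBayes with trend) in R 4.3.3, adjusted over all 33787 tested probe sets. A gene was represented by its brightest tested probe set. Every member is named. Members with a called probe set and the 3 of lowest p in each group get all 6 values, and Gapdh, Ldha, Eno2, Aldoa, Pfkm, Slc2a3, Pdk1, Pdk4, Pfkfb3 and Hif1a were added after their values were seen. Of pathway lists all called genes are named. Members and lists were chosen with earlier results of these data known. The fit was tested on simulated data, at an adjusted p under 0.05. It recovered 0 of 50 changes of 1.3-fold, 17 of 50 of 1.5-fold and 48 of 50 of 2-fold. A member that did not pass may therefore still differ by 1.3-fold or 1.5-fold. The called falls of Tpi1 (1.26-fold) and Pkm (1.25-fold) were smaller than 1.3-fold, and recovery at those sizes was not tested. Alternatives changed normalization, floor, filter, variance model, weights, block, probe set, threshold and arrays. Leaving out the muscle-rich and the pancreas-rich array together, and the adipocyte covariate, were chosen after seeing the data. Figures were drawn with matplotlib 3.10.9. The number of arrays, 3 per group, limits precision.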

Additional observations from a re-analysis of the deposited data

How the results depend on the processing

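The count of fallen glycolytic enzymes, 2 with all arrays, was 0 with median-centred arrays, without an intensity trend and with the adipocyte covariate, 1 without the filter and without the muscle-rich and the pancreas-rich array, and 4 at an adjusted p under 0.1. It ranged from 0 to 2 over removals of 1 array. Calls among carriers and kinases ranged from 0 to 1 over these removals, and those among hypoxia genes from 0 to 1, and each was 1 without the muscle-rich and the pancreas-rich array. Calls in the pathway lists, 6 in the main result, were 3 without a trend and with the mean of probe sets, 0 with the adipocyte covariate, and 0 to 12 over removals of 1 array. With a replicate block 4 enzymes fell. Same-numbered samples deviated together only for number 3 (correlation 0.25, against -0.152 and -0.0432). With 3 samples per group and tissue signal in single arrays, this cannot decide whether the numbers pair the samples.

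Of 564 alternative values of the 30 members, 504 kept direction and side of the threshold, and 18 lost and 10 gained the call. The losses were those of Tpi1 and Pkm, in 9 of 19 alternatives each, and the 28 other members had no call to lose. A further 32 values changed sign, in 11 genes that were not called. The cause was not tested. With median-centred arrays these were Pfkl 0.032, Aldoa 0.072, Pdk3 0.010, Ankrd37 0.049 and Higd1a 0.025. After quantile normalization they were Slc2a3 -0.024 and Ankrd37 0.066. With the adipocyte covariate they were Hk1 -0.058, Ldhb -0.0051, Slc2a3 -0.17, Pdk1 -0.077, Pdk4 -1.03, Pfkfb3 -0.033 and Higd1a 0.041. Without the muscle-rich and the pancreas-rich array they were Pfkl 0.036, Aldoa 0.18 and Pdk3 0.0063. Pdk4 read -0.083 with a floor of 64, and Higd1a 0.069 with the mean of probe sets. Over removals of 1 array Hk1 ranged from -0.013 to 0.097, Pfkl from -0.13 to 0.031, Aldoa from -0.17 to 0.19, Slc2a3 from -0.12 to 0.18, Pdk1 from -0.012 to 0.17, Pdk4 from -0.35 to 1.32 and Higd1a from -0.13 to 0.0007. Over all genes 437 were called, against 226 without a trend, 267 with median-centred arrays, 780 with array weights, 923 with the block, 1023 at an adjusted p under 0.1, 1144 without the muscle-rich and the pancreas-rich array, 20 with the covariate and 100 to 1893 over removals of 1 array.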

Other observations

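The pathways that meet glycolysis showed no call by limma at an adjusted p under 0.05, beside 2.81% of all genes. The counts at an unadjusted p under 0.05 were 2 of 16 for the citrate cycle, 0 of 6 for the pentose phosphate pathway, 1 of 10 for pyruvate entry, 5 of 12 for the other carriers, 4 of 6 for gluconeogenesis and 1 of 11 for the other isozymes, beside 24.2% of all genes. Of 16 citrate cycle genes 0 passed, with a median log2 difference of -0.05 and a range from -0.14 to 0.23, the upper end being Idh3b, a subunit of isocitrate dehydrogenase (adjusted p = 0.106). Of 6 pentose phosphate genes 0 passed (median -0.06), among them Tkt, the transketolase (-0.07, adjusted p = 0.615). Of 10 genes of pyruvate entry and the pyruvate dehydrogenase complex 0 passed (median 0.04), with Mpc1, a subunit of the mitochondrial pyruvate carrier, at 0.16 (0.229) and the phosphatase Pdp1 at 0.35 (0.157).

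Of 12 other sugar and monocarboxylate carriers 0 passed and 10 lay below 0, beside 8811 of all 15531 genes, with a median of -0.30. All of them but Slc2a12 and Slc2a13 were highest in control replicate 2, the array with the highest median intensity (142.5). The part of that array in these differences was not tested. Slc2a4 (GLUT4), the insulin-regulated carrier of muscle and fat, read 453.0, 558.4 and 475.7 in control, against 394.4, 365.0 and 381.5 in Ihh-ablated samples (log2 difference -0.38, limma adjusted p = 0.102). Of 6 genes of gluconeogenesis 0 passed. Fbp1, the fructose bisphosphatase, read -0.70 (adjusted p = 0.0837), and Pck1, also an adipocyte marker, 1.62 (0.183). Of 11 other glycolytic isozymes 0 passed and 9 lay below 0, with Pgam2 and Eno3 at -0.99 each (0.161 and 0.219). Hk3, Gapdhs, Pklr, Ldhc, Adpgk and Bpgm were also highest in control replicate 2, whereas Hkdc1, Pgam2, Eno3, Pgm1 and Pgm2 were highest in other arrays.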
